A study of Arabidopsis thaliana with 4 samples.

Results

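The 3′ ends of wild-type Pol V transcripts were described at 7 loci in the Col-0 library, which is 1 of the 4 libraries of the series and was chosen by its label. Col-0 is the reference ecotype of Arabidopsis thaliana, and these plants carried no mutation. RNA came from above-ground tissue of plants aged 2.5 weeks, grown with 16 hours of light and 8 hours of dark. The other libraries came from the mutants nrpe1-11, rrp6L1-1 and rrp6L1-2 and were not analysed here. The library held 141489 reads after repeated lines were dropped, from 8539 at IGN5t to 28398 at IGN25. All named loci are intergenic noncoding transcripts, so the labelled tissue could not be checked against marker genes. There was 1 library and no replicate, and how many plants it came from is not given in the sources used here.

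RNA polymerase V (Pol V) is a plant relative of RNA polymerase II that makes noncoding RNA at silenced sites of the genome. Its transcripts stay near the DNA and serve as a scaffold. Small interfering RNAs held by an ARGONAUTE protein pair with them, and a DNA methyltransferase is then recruited. The loci named IGN (intergenic noncoding) are among the sites used to follow this RNA-directed DNA methylation. Pol V transcripts are not known to carry the poly(A) tail of messenger RNA, and a tail was added in vitro so that their ends could be read. The assay was 3′ RACE, in which tailed RNA is reverse transcribed from oligo(dT) and amplified by nested PCR from primers inside the chosen transcripts. Each end has a length, counted in nt along the transcript from a fixed position at its locus, where length 1 is the first counted base. That position is not shown to be the 5′ end of the RNA, so lengths at different loci do not share an origin.

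The sequences below start at length 1, run 5′ to 3′ in the direction of transcription, and stop 10 bases beyond the last peak. They are shown because 37 of the 43 peaks described below stood directly before an A. Capitals mark the last base of the RNA at each peak, a peak being a length that held at least 5% of the ends of its locus and more than any length within 2 nt of it. The bases come from the RefSeq copy of the genome, TAIR10.1.
IGN5b, chr4:2323304-2323405, plus strand: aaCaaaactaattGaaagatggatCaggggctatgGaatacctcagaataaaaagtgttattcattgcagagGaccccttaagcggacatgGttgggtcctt
IGN5t, chr4:2323055-2323136, minus strand: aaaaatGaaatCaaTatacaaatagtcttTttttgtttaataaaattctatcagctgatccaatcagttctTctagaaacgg
IGN17, chr1:13585662-13585773, plus strand: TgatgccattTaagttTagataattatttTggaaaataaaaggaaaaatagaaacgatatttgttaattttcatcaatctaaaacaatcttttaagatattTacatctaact
IGN23, chr4:2577995-2578101, plus strand: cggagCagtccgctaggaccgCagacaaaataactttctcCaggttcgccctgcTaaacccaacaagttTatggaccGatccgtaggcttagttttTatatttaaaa
IGN25, chr4:5459179-5459328, plus strand: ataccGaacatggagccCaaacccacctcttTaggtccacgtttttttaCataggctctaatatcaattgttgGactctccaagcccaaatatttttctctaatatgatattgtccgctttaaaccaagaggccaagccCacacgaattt
IGN29, chr2:15314845-15314910, plus strand: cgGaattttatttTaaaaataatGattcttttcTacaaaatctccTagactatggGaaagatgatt
IGN35, chr4:6549083-6549196, plus strand: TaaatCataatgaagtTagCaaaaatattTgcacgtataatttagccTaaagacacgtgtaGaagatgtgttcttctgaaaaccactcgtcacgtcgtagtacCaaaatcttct

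None of the 7 stretches that held Col-0 ends overlapped an annotated gene. Between the first counted base of IGN29 and DML1 (AT2G36490), which encodes a DNA demethylase and is transcribed the other way, lie 37 nt. Between IGN23 and AT4G05030, also transcribed the other way, lie 20 nt. IGN5b and IGN5t run apart from each other, with 167 nt between their first counted bases.

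Wild-type ends were concentrated at a few positions of each locus rather than spread along it. Over the 7 loci there were 43 peaks, from 5 at IGN5t and IGN17 to 8 at IGN35, and their single positions held between 54.4% of the ends (IGN5t) and 86.8% (IGN5b). The number of peaks was 60 with a threshold of 2%, 16 with a threshold of 10%, and 25 when positions before a genomic A were left out. IGN35 had 12 peaks at 2% and 0 at 10%. The ends occupied 802 distinct positions in all, yet 2 positions were enough to hold 50% of the ends at IGN5b and 8 were enough at IGN35, the locus that needed the most. Most peaks were narrow within the window of 2 nt on either side. The peak position held a median of 91.7% of the ends in that window, and 24 of 43 peaks held at least 90% of it. The peak rule picks the highest position of the same window, which favours a high share. At the 37 peaks before a genomic A, ends within the A run are mostly recorded at the peak, which empties the positions just downstream.

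**Figure D1:**
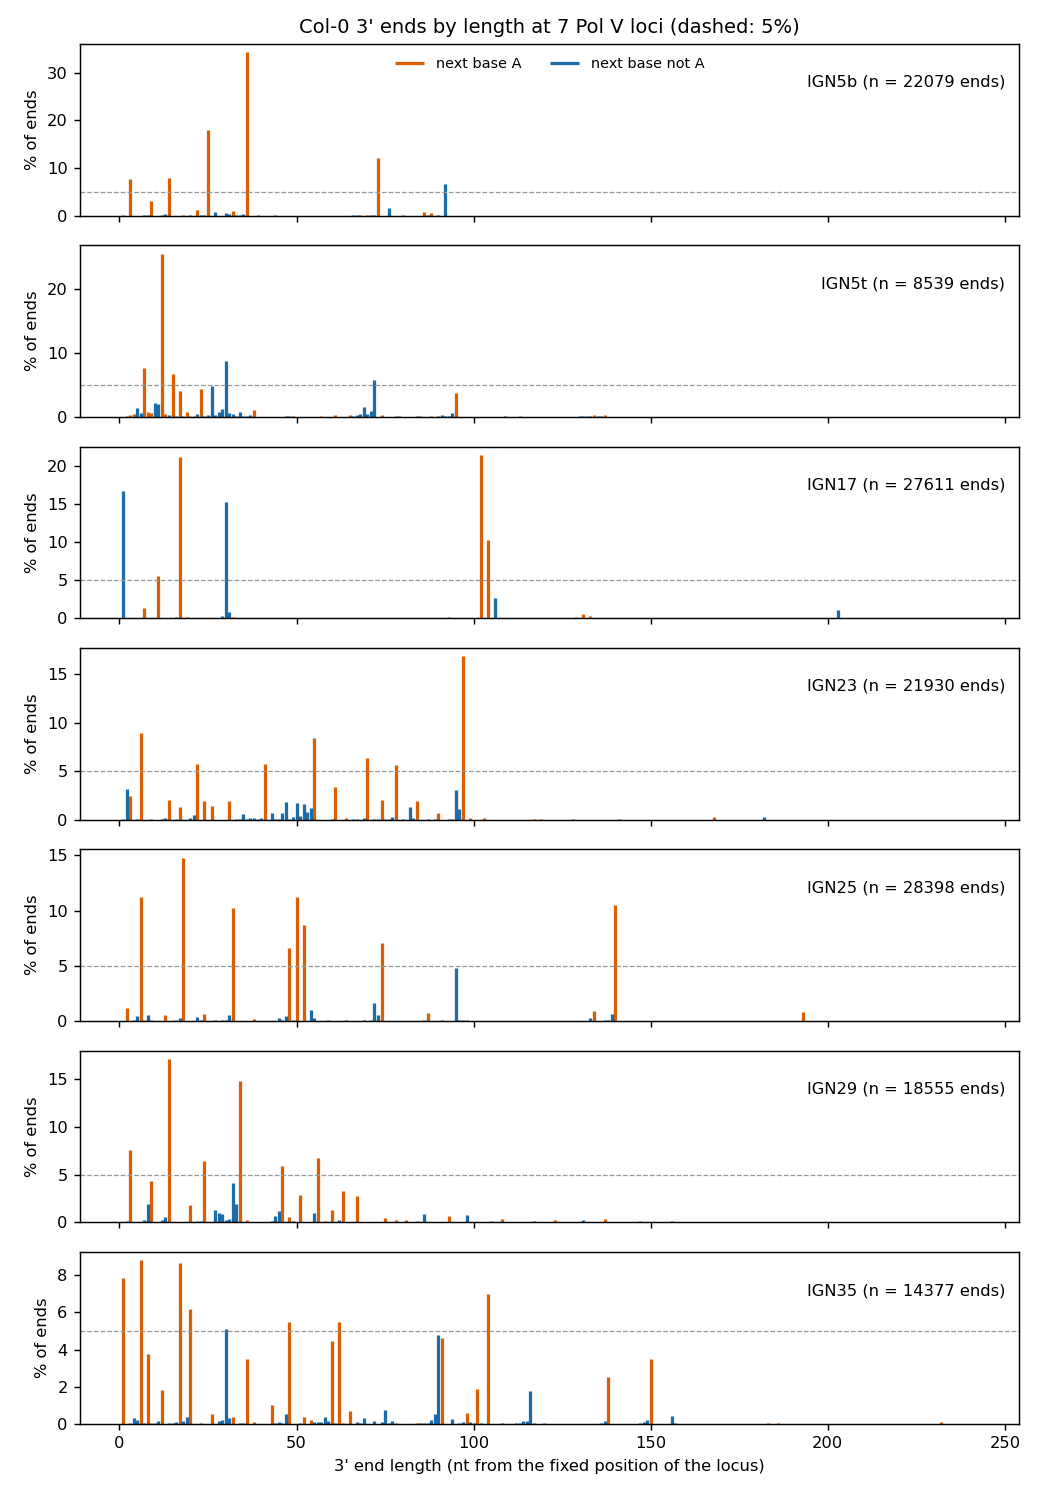
Share of the ends of each locus (y axis, % of ends) at each 3′ end length (x axis, nt), 1 panel per locus, Col-0 library; the y axes differ. Lines are orange where the next genomic base is A and blue where it is not, and the dashed line is the 5% threshold; IGN5b has 34.3% at 36 nt, while no position of IGN35 passes 8.81%.

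The loci differed widely in how even their ends were. The effective number of positions, which is 1 over the sum of squared shares and equals the number of positions if all held the same share, was 5.46 at IGN5b, 6.40 at IGN17, 10.4 at IGN5t and 11.3 at IGN25. It was 12.8 at IGN29, 15.4 at IGN23 and 19.5 at IGN35. The most frequent position therefore ranged from 34.3% of the ends at IGN5b (36 nt, exact 95% interval 33.7% to 34.9%) to 8.81% at IGN35 (6 nt, 8.35% to 9.29%). These intervals, and all others given here, cover counting error only: the reads passed through nested PCR without molecular identifiers and are not independent molecules.

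IGN5b and IGN17 were the most concentrated loci. At IGN5b the peaks stood at 3 nt (7.73%), 14 nt (7.96%), 25 nt (18.0%), 36 nt (34.3%), 73 nt (12.1%) and 92 nt (6.73%). The first 4 of these were exactly 11 nt apart. With a threshold of 2% a further peak stood among them, at 9 nt (3.13%). From 37 to 69 nt no length reached 0.1%, and the whole stretch held 0.512% of the ends. At IGN17 the peaks stood at 1 nt (16.6%), 11 nt (5.59%), 17 nt (21.1%), 30 nt (15.3%) and 102 nt (21.4%). Its ends fell into a near and a far group, separated by an empty stretch from 33 to 92 nt, each of whose lengths held under 0.1%. Ends before that stretch made up 62.2% of the locus and those beyond it 37.3%, while the 60 nt of the stretch held 0.485%.

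IGN25 had the widest spread by the middle 80% of its ends. These ends, between the 10% and 90% points of its length distribution, covered 134 nt, against 54 nt at IGN29, the narrowest. The 90% point of IGN25 lay at its peak at 140 nt. By the middle 50% of the ends IGN17 was wider, at 85 nt against 56 nt at IGN25. The IGN25 peaks stood at 6 nt (11.2%), 18 nt (14.8%), 32 nt (10.2%), 50 nt (11.2%), 74 nt (7.09%) and 140 nt (10.5%). The spacing widened downstream, at 12, 14, 18, 24 and 66 nt. This steady widening depended on the threshold. With 2% IGN25 had 7 peaks, with 95 nt (4.76%) added between 74 and 140 nt. The peak at 50 nt was the broadest of the 43, with 42.3% of its window, because 48 nt (6.58%) and 52 nt (8.66%) beside it also passed 5%. The other position past 5% that was not counted as a peak was 104 nt at IGN17 (10.2%), next to 102 nt. In both places the lengths 2 nt apart were each followed by a single A in the genome.

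IGN29 had the most regular peaks. They stood at 3 nt (7.60%), 14 nt (17.2%), 24 nt (6.41%), 34 nt (14.9%), 46 nt (5.92%) and 56 nt (6.81%), with spacings of 11, 10, 10, 12 and 10 nt. The regular series depended on the threshold. With 2% IGN29 had 10 peaks, with 9 nt (4.37%), 51 nt (2.85%), 63 nt (3.34%) and 67 nt (2.81%) added, and with 10% it had 2. IGN29 also had the smallest share of ends beyond 75 nt, at 5.64%, although its longest read ended at 242 nt, the longest length at any of the 7 loci.

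IGN23 and IGN35 had the most even ends by the effective number of positions, and IGN5t joined 1 main peak with many small positions. IGN23 had 7 peaks between 6 and 97 nt, with 16.8% at 97 nt, 8.95% at 6 nt, 8.38% at 55 nt and the other 4 between 5.65% and 6.31%. Its ends stopped sharply after the last of these, since 99% lay within 103 nt. IGN35 had 8 peaks between 1 and 104 nt, all between 5.13% and 8.81%, and none of them stood apart from the others. IGN5t had its main peak at 12 nt (25.5%) and smaller ones at 7 nt (7.66%), 15 nt (6.73%), 30 nt (8.72%) and 72 nt (5.74%). The rest of its ends were scattered, and 30 positions were needed to hold 90% of them, against 6 at IGN17. The positions nearest to the 5% threshold were 30 nt at IGN35 inside it (5.13%) and 26 nt at IGN5t outside it (4.80%).

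**Figure D2:**
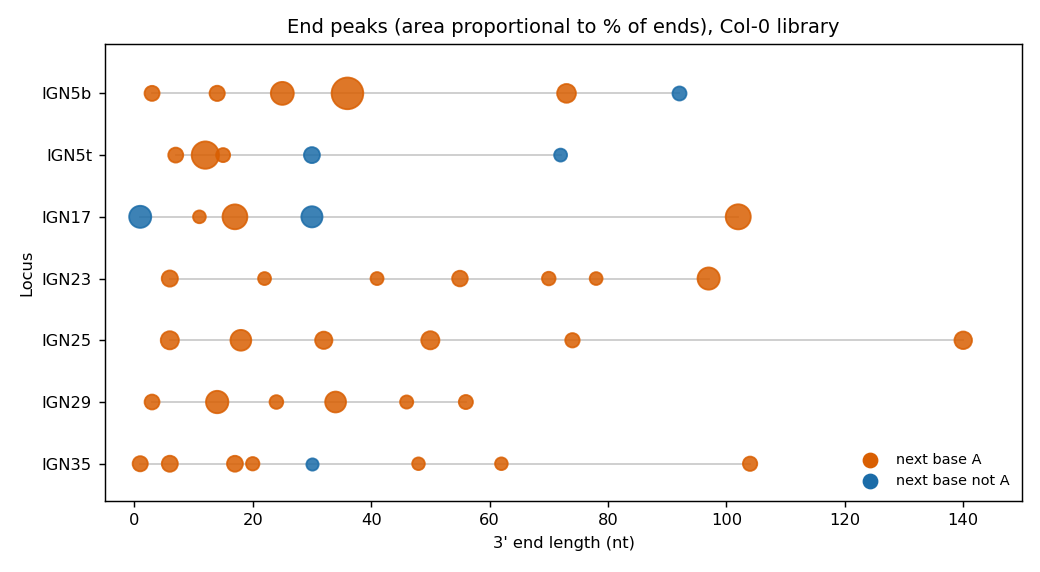
Length of each of the 43 peaks (x axis, nt) at each locus (y axis) in the Col-0 library, with the area of a dot proportional to its share of the ends of the locus. Orange dots are followed by a genomic A (37 peaks) and blue dots are not (6 peaks); the evenly spaced rows are IGN29 and the first 4 peaks of IGN5b.

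Neighbouring peaks lay a median of 12.5 nt apart over the 36 neighbouring pairs, with a range of 3 to 72 nt. The peak rule allows no spacing under 3 nt. Spacings of 10 to 12 nt made up 12 of the 36. They were not spread evenly over the loci: 5 were at IGN29, 3 at IGN5b, 2 at IGN35, 1 at IGN17, 1 at IGN25 and none at IGN23 or IGN5t. At IGN23 the spacings ran from 8 to 19 nt with a median of 15.5 nt. Distances over 20 nt occurred 6 times, and 5 of them were the longest step of their locus, at IGN17 (72 nt), IGN25 (66 nt), IGN5t and IGN35 (42 nt each) and IGN5b (37 nt). These steps can be set beside those of all positions directly before an A, where most peaks stood. From 3 to 36 nt, IGN5b had 8 positions directly before an A, a median of 4 nt apart, and 4 of them were peaks. From 3 to 56 nt, IGN29 had 11 such positions, a median of 5 nt apart, and 6 of them were peaks. With a peak threshold of 2% the median spacing over all loci was 10 nt, and with 10% it was 17 nt.

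Typical lengths ran from 17 to 55 nt. The median was 17 nt at IGN5t (order-statistic 95% interval 15 to 17 nt), 30 nt at IGN17 (30 to 30), 33 nt at IGN29 (33 to 33) and 36 nt at IGN5b (36 to 36). It was 43 nt at IGN35 (43 to 47), 50 nt at IGN25 (49 to 50) and 55 nt at IGN23 (55 to 55). None of these intervals overlapped. They are narrow because many reads share a position, and they do not describe what a second library would give. The interquartile range, the distance covered by the middle 50% of the ends, was 11 nt at IGN5b and 85 nt at IGN17, so loci with close medians differed greatly in spread.

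**Figure D3:**
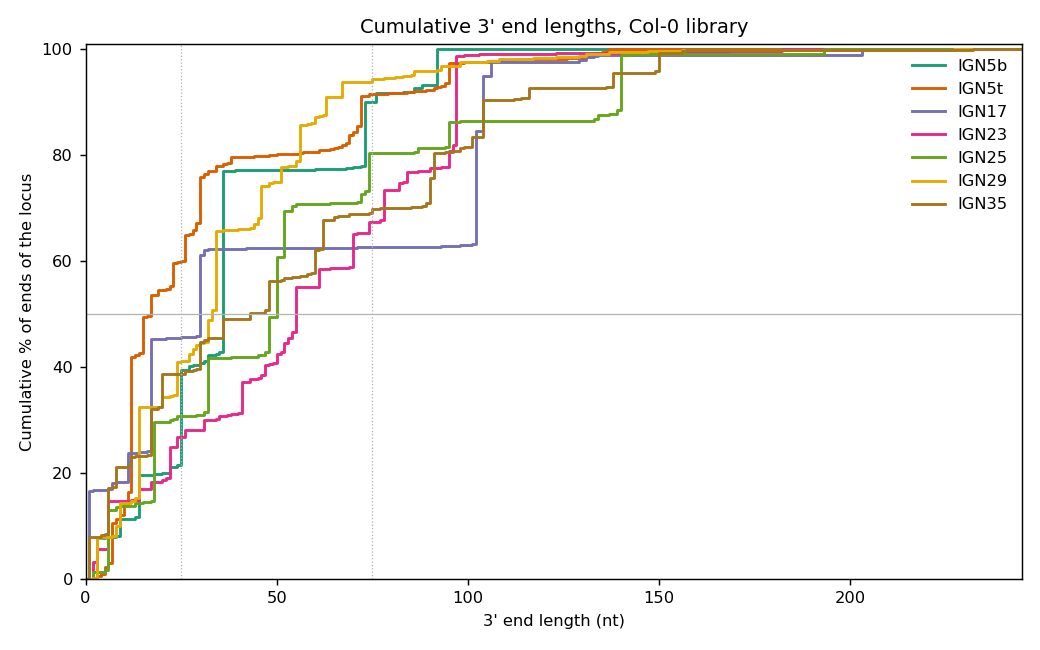
Cumulative share of the ends of each locus (y axis, %) up to each 3′ end length (x axis, nt) in the Col-0 library, 1 line per locus; the dotted lines mark 25 and 75 nt and the horizontal line 50%. Vertical steps are peaks; IGN5t reaches 50% first, at 17 nt, and IGN23 last, at 55 nt, and IGN17 stays flat between its near and far groups.

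Short ends outnumbered long ends at 6 of the 7 loci, taking short as up to 25 nt and long as over 75 nt. The short share was 60.1% at IGN5t, 45.6% at IGN17, 41.1% at IGN29, 39.4% at IGN5b, 38.7% at IGN35, 30.7% at IGN25 and 26.7% at IGN23. The long share was 37.4% at IGN17, 32.6% at IGN23, 30.2% at IGN35, 19.6% at IGN25, 9.96% at IGN5b, 8.54% at IGN5t and 5.64% at IGN29. These shares depended on peaks near the limits. At IGN5b the peak at 25 nt, with 18.0% of the ends, lay on the limit, and the short share there was 19.9% with a limit of 20 nt and 21.4% with ends moved past their A run. With long taken as over 100 nt, the long share was 36.9% at IGN17 but 18.5% at IGN35, 1.12% at IGN23 and 0.0136% at IGN5b. IGN23 was the exception to the excess of short ends, with its long share above its short share. IGN17 had the fewest ends in between, at 17.0%, and IGN29 the most, at 53.3%. The count depended on the first few positions, since leaving out the first 10 nt gave 3 of 7 loci, with IGN17, IGN25 and IGN35 turned. IGN25 and IGN35 also turned when the most frequent position was left out, and so did IGN23. Without positions before a genomic A the count was 3 of 7 as well, with IGN5b, IGN25 and IGN35 turned. With each distinct position of at least 2 ends counted once it was 1 of 7. Reads with the highest mapping quality score made up 87.3% of the short ends and 73.1% of the long ends. With those reads alone it was still 6 of 7 loci, and the long share fell from 19.6% to 13.2% at IGN25 and stood at 37.5% at IGN17.

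**Figure D4:**
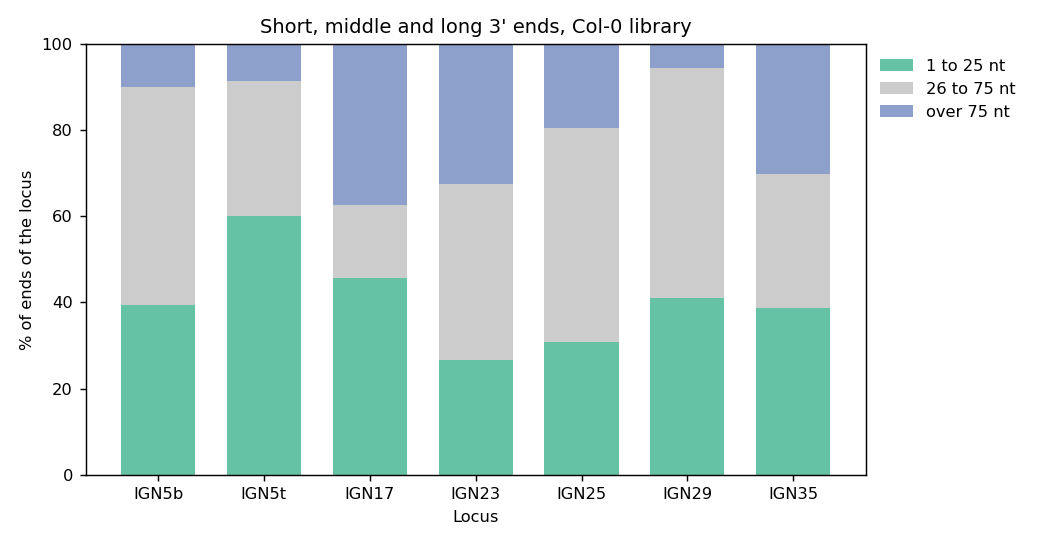
Share of the ends of each locus (y axis, %) that were 1 to 25 nt, 26 to 75 nt or over 75 nt long, stacked to 100%, Col-0 library. IGN5t has the tallest short segment (60.1%) and IGN17 the tallest long segment (37.4%).

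Ends near the fixed position occurred at every locus, though that position is set per locus and lengths have no common origin. Every locus had its first peak between 1 and 7 nt, and the first 10 nt held between 11.2% of the ends (IGN5b) and 21.1% (IGN35). At exactly 1 nt, IGN17 had 16.6% and IGN35 7.88%, while the other 5 loci had under 0.05% each. The last peak differed between loci and lay between 56 nt (IGN29) and 140 nt (IGN25). With a threshold of 2% it lay between 67 nt (IGN29, 2.81%) and 150 nt (IGN35, 3.49%).

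Most peak lengths were a peak at 1 locus only, and how many would coincide by placement alone was not worked out. The 43 peaks stood at 35 different lengths, 29 of which were a peak at 1 locus. Peaks at 6 nt were found at IGN23, IGN25 and IGN35, and peaks at 30 nt at IGN5t, IGN17 and IGN35. Those at 1 and 17 nt were shared by IGN17 and IGN35, and those at 3 and 14 nt by IGN5b and IGN29. Position by position, 2 loci had a median of 11.1% of their ends in common over the 21 pairs. The most alike were IGN17 and IGN35 with 30.8%, and the least alike IGN5b and IGN17 with 1.88%. IGN5b and IGN5t, which start from the same intergenic stretch on opposite strands, had 7.22% in common. Because lengths have no common origin, a shared length is not a shared site, and an unshared length is not a difference between sites. The shares in common carry the same limit.

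The base after the end was A at most peaks. Of the 43 peaks, 37 were directly followed by a genomic A. The last base of the RNA at the peaks was T at 19, C at 12, G at 12 and A at none. Of the bases other than A in the spans defined next, T made up a median of 44.3% over the loci, C 28.9% and G 23.0%. The absence of A is bound up with the added tail, as described below. Among all ends within the span of a locus, counted from length 1 up to the shortest length that takes in 99% of its ends, the share lying on a base other than A directly before an A was 87.2% at IGN5b, 85.7% at IGN25, 80.1% at IGN35, 79.2% at IGN29, 77.8% at IGN23, 61.8% at IGN17 and 56.2% at IGN5t. Such positions made up between 16.8% (IGN29) and 22.2% (IGN17) of the span. Counting every end followed by an A, whatever its own base, the median over the loci was 79.3%.

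The tail bears on this count. After the tail is removed, an end within a run of genomic A cannot be told apart from an end just before the run, and ends at an A made up between 0.304% (IGN23) and 1.16% (IGN35) of the ends within the spans, apart from 9.05% at IGN5t. Evenly spread ends, with those in A runs recorded before the run, would put between 45.6% (IGN23) and 60.1% (IGN17) of the ends before an A. At IGN5t the observed share was 56.2% against 50%, and it leaves out the 9.05% of ends recorded at an A. The 50% takes in the A runs there, apart from the run that opens the locus, so the observed share is understated beside it. At IGN17 the observed share was close to the arithmetic value (61.8% against 60.1%). With spans that take in 90% of the ends, IGN17 was below it, at 63.9% against 65.4%. The observed shares were well above the arithmetic value at IGN25 (85.7% against 47.9%), IGN29 (79.2% against 46.6%), IGN23 (77.8% against 45.6%), IGN5b (87.2% against 57.6%) and IGN35 (80.1% against 55.3%). Per base, with each A run counted as part of the site before it, sites before an A held 6.97 times as many ends as other sites at IGN25, 5.04 times at IGN5b, 4.58 at IGN29, 4.22 at IGN23, 3.45 at IGN35, 1.5 at IGN5t and 1.08 at IGN17. The ratio at IGN5t likewise leaves out its ends recorded at an A. The span affected these ratios: with 90% of the ends it was 14.3 at IGN5b, above the 7.18 of IGN25, and 0.944 at IGN17. Whether the tailing, the priming or the trimming of tails adds to this was not tested.

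**Figure D5:**
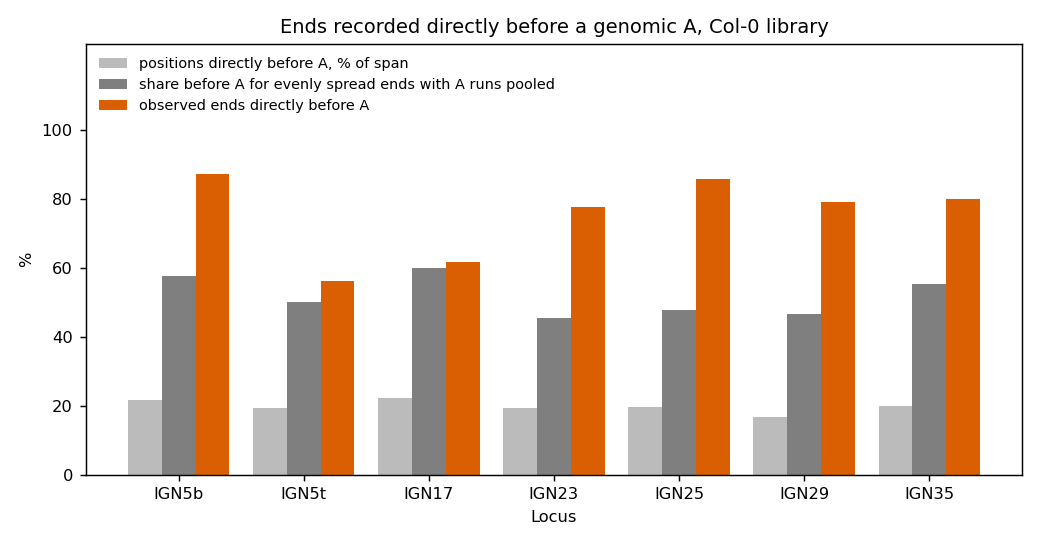
For each locus in the Col-0 library, the share of span positions that lie directly before an A (light grey), the share of ends that would be recorded there if ends were evenly spread and A runs pooled (dark grey), and the observed share of ends (orange); y axis in %. The orange bar is far above the dark grey bar at 5 loci, less so at IGN5t and close to it at IGN17. The orange bar leaves out ends recorded at an A, which made up 9.05% at IGN5t.

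A following A was not enough for a peak. Of 191 positions directly before an A in the 7 spans, 73 held at least 1% of the ends of their locus and 73 held under 0.1%. IGN17 had 45 such positions, 33 of them under 0.1%, while IGN23 had 20 with none under 0.1%. The mean share did not grow in proportion to the length of the A run. Positions before a single A held a mean of 2.50% (122 sites), those before 2 A bases 3.22% (34 sites) and those before 3 or more 3.14% (35 sites). Counted per base of site and run, the means were 1.25%, 1.07% and 0.688%. Sites before 3 or more A bases reached 5% of the ends at 11 of 35 sites (31.4%). Those before 1 A did so at 23 of 122 (18.9%), and those before 2 at 6 of 34 (17.6%). A site before a longer run can take in the ends of more bases, which favours passing a fixed limit. The part of this in the counts was not tested.

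The 6 peaks without a following A have an end position that no A run blurs. They were 1 nt and 30 nt at IGN17 (16.6% and 15.3%), 30 nt and 72 nt at IGN5t (8.72% and 5.74%), 92 nt at IGN5b (6.73%) and 30 nt at IGN35 (5.13%). The next base was G at 3 of them, T at 2 and C at 1. The last base was T at 5 and G at 1. For the other peaks the recorded position is the nearest one possible. Over all ends of a locus, the run of A that follows averaged from 0.693 nt (IGN17) to 1.85 nt (IGN29), and it was 3 nt or more for 32.6% of the ends at IGN35 and 0.616% at IGN17. Moving every end to the far side of its A run changed the median of the 7 locus medians from 36 to 38 nt and left 42 peaks.

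The last base and the surrounding composition differed between loci. The shares given here count reads, so a few positions can set each of them. At IGN17 the 5 peaks, which all end in T, held 80.1% of the ends. At IGN5b the G at 36 nt held 34.3%. Among ends at C, G or T, 85.6% were at T at IGN17, where T made up 54.8% of those bases in the span, and 65.8% were at G at IGN5b, where G made up 38.6%. At IGN29, C held 5.82% of these ends and 19.6% of the bases. At IGN25, C held 42.7% of the ends and 38.6% of the bases. The 10 bases before the ends had a GC content of 15.4% at IGN17 against 26.9% over its span, and of 18.6% against 33.1% at IGN5t. At IGN5b it was higher, 46.1% against 40.0%, and at IGN23 it was close to the span, 49.8% against 49.0%. No direction was common to all 7 loci.

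A-rich sequence downstream of the ends was likewise found at some loci. Taking at least 4 A in the next 6 bases as A-rich, 53.6% of the IGN35 ends lay before such sequence against 19.3% of its span. The corresponding values were 49.0% against 16.4% at IGN5t, 46.8% against 14.5% at IGN29 and 39.0% against 20.7% at IGN17. At IGN5b (16.1% against 15.2%) and IGN23 (12.8% against 11.7%) the ends resembled the span, and at IGN25 they were below it (0.875% against 2.82%). Ends within a run of genomic A are mostly recorded before the run, which by itself places ends before A-rich sequence. The span shares count every position once and do not allow for this. Oligo(dT) can also pair with A-rich template. The part of either in these shares was not tested.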

How the data were processed

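The Col-0 table deposited by the authors has 1 line per read, with locus, read name, mapping quality score, strand, chromosome, 3′ end coordinate and transcript length. Per the labels' protocols, total RNA was tailed with poly(A) polymerase, reverse transcribed from oligo(dT) and amplified by nested PCR, and products were pooled. Per the submitters' processing notes, the tools were Bowtie2, bedtools, SAMtools, cutadapt 1.9.1 and bcl2fastq 2.16.0.10, with TAIR10 as the build; what each did is not given in the sources used here. The mapping quality score in the deposited table lay between 41 and 44.

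Of 169100 lines, 27611 were exact repeats, all at IGN17, and were dropped. Length equalled the distance from 1 fixed position at every locus. Strands follow increasing length; the deposited strand was the opposite at 7 of 7 loci. Coordinates were read as 1-based and looked up in TAIR10.1, the NCBI copy of the genome.

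Peaks, medians, shares (Clopper-Pearson intervals), spacings and inverse Simpson numbers were computed with Python 3.11.15, pandas 2.3.3, NumPy 2.4.6 and SciPy 1.17.1, and the peak rule was tested on simulated data. With 1 library no test was made and no spread between replicates exists; counting error alone is small at 8539 to 28398 reads per locus. All 7 loci and every peak by the rule are named. Shares are within a locus, since the pooled amounts of PCR product are not tied to RNA amounts. Members, lists and thresholds were chosen with earlier results of these data known, and the span used for sequence features after the data were seen.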

Additional observations from a re-analysis of the deposited data

How the results depend on the processing

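No paired analysis was possible because the description rests on 1 library, and for the same reason no replicate could be left out. The medians and counts over the 7 loci were recomputed under 15 alternatives. They start from 43 peaks, a median length of 36 nt, short and long shares of 39.4% and 19.6%, 6 loci with more short than long ends, a spacing of 12.5 nt, 11.3 effective positions, 72.0% of ends within 2 nt of a peak and 79.3% before A. Counting lines as deposited left all 9 values as they were. That was fixed in advance, since every IGN17 line was doubled, no other locus had repeats, and all values rest on shares within a locus. Without positions under 5 ends, 8 of 9 values stayed within counting error or tolerance. After thinning to 8539 ends per locus, again 8 of 9 did. The exceptions were 11.2 and 11.4 effective positions, in that order. A peak threshold of 2% gave a spacing of 10 nt and 87.2% near peaks. A threshold of 10% gave 16 peaks, 17 nt and 39.2%. Requiring the highest within 5 nt gave 14 nt and 70.3%, and every position past the threshold 12 nt. Limits of 20 and 100 nt gave short and long shares of 34.3% and 2.48%, and turned short minus long at IGN23 to 17.5 percentage points. Limits of 30 and 60 nt gave 44.5% and 29.2%.

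With positions before a genomic A excluded, the alternative changed all 8 values computed: 25 peaks, 51 nt, short 17.5%, long 29.5%, 3 loci, a spacing of 21 nt, 7.37 effective positions and 70.1% near peaks. Short minus long turned to -59.4 points at IGN5b, -31.1 at IGN25 and -40.7 at IGN35. Ends moved past the A run gave 38 nt, short 38.7%, spacing 13 nt, 11.0 effective positions and 66.1% near peaks. Without the first 10 nt, the values were short 31.2%, long 22.7%, 3 loci, spacing 14 nt, 9.80 effective positions, 80.8% near peaks and 77.8% before A, with -12.2 points at IGN17, -3.08 at IGN25 and -15.9 at IGN35. With each position of at least 2 ends counted once, the values were 61 nt, short 21.7%, long 38.9%, 1 locus and 33.7% before A. The points were then -13.9 at IGN5t, -12.2 at IGN17, -17.6 at IGN25, -21.8 at IGN29 and -26.9 at IGN35. Without the most frequent position they were 34 nt, short 32.8%, long 18.9%, spacing 14 nt, 14.1 effective positions, 77.1% near peaks and 75% before A, with 13.1 points at IGN23, -4.31 at IGN25 and -0.275 at IGN35. Reads of the highest mapping quality gave 32 nt, short 43.2%, long 13.2%, spacing 12 nt, 9.64 effective positions, 82.4% near peaks and 82.4% before A. Beyond what each alternative removes by construction, the cause was not tested. A span up to the length of 90% of the ends, chosen after seeing the data, changed the median ratio per base from 4.22 to 3.39.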

Other observations

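Mapping quality moved with length in the Col-0 library. Over the 7 loci, 87.3% of the short ends, 77.8% of the middle ends and 73.1% of the long ends came from reads with the highest deposited score, 44. The difference was largest at IGN25, with 92.0% of the short ends and 52.3% of the long ends, and its peak at 140 nt had 44.4%. The peaks at 104 nt of IGN35 (96.0%) and 97 nt of IGN23 (89.9%) were long ends with high scores. At IGN17 the short and long ends were alike, at 84.8% and 82.8%.

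Small groups of ends lay beyond the last peak at several loci. IGN17 had 1.12% at 203 nt, IGN25 had 0.820% at 193 nt and IGN23 had 0.269% at 182 nt. IGN35 had 1.76% at 116 nt, 2.50% at 138 nt and 3.49% at 150 nt. IGN5t had 3.76% at 95 nt, and IGN29 had 3.34% at 63 nt and 2.81% at 67 nt. IGN5b had 99% of its ends within 92 nt, its last peak.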
